A study of Mus musculus with 4 samples.

Results

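The 10 genes described here belong to the circadian clock, the transcriptional feedback loop that keeps daily time in nearly every mammalian cell. They were chosen by symbol from the deposited heart and muscle tables: Arntl, Clock, Per1, Per2, Per3, Nr1d1, Nr1d2, Dbp, Hlf and Nfil3. All 10 were listed in both tables, among 9906 gene symbols in both and 11237 in either, and none was listed on more than 1 row. Ribosome-protected fragments (RPF), the pieces of mRNA that a ribosome shields from nuclease, and total RNA depleted of ribosomal RNA were sequenced from heart and from the fast hindlimb muscle tibialis anterior (TA). The animals were untreated male C57BL/6J mice aged 10 weeks. Each group (heart RPF, heart RNA, TA RPF, TA RNA) was 1 library, and the RPF and RNA of a tissue came from 1 lysate. The sources used here do not give the number of animals behind a library, whether heart and TA came from the same animals, or the time of day of harvest. Levels of clock genes swing through the day, so every level below belongs to an unstated hour.

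In the loop, CLOCK and BMAL1, the product of Arntl, pair on E-box sites and activate the Per and Cry genes, whose proteins return to the nucleus and repress that pair. CLOCK and BMAL1 also activate Nr1d1 and Nr1d2, which encode the heme-binding repressors REV-ERBα and REV-ERBβ, and these repress Arntl through RORE sites that the ROR receptors use as activators. DBP, HLF and TEF, the PAR bZIP proteins, carry the rhythm to output genes with D-box sites, where the protein of Nfil3 acts as a repressor. In heart and skeletal muscle the clock is known for daily rhythms of ion channels, glucose and lipid use.

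Values are RPM, reads on the coding sequence scaled to all coding reads of the library, and levels between genes are compared per kilobase (RPM per kb). Depths, read from the step between low values, were 28120000 (RPF) and 9290000 (RNA) coding reads for heart, and 28540000 (RPF) and 16050000 (RNA) for TA. With 1 library a group there is no replicate check and no p-value. Intervals are 95%, come from the reads behind each value and cover counting error only. Differences are described by a size of at least 2-fold, read against the share of all genes that met the same rule. All 8 heart muscle markers were listed in heart and summed to 139000 RPM of RPF there, against 41.1 RPM in TA, where Myh6, Nppa and Ryr2 were not listed. All 8 fast skeletal markers were listed in TA and summed to 46.6 RPM of RPF in heart, where Myh4, Actn3 and Ryr1 were not listed, against 265000 RPM in TA. Both tissue labels therefore matched their defining markers.

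The output regulator Dbp and the repressor Nr1d1 led the group in footprints, and Nr1d2 led it in RNA. Dbp had 108 RPM per kb of footprints in heart (104 to 112) and 93.4 in TA (89.8 to 97.0), the highest of the 10 genes in both tissues. Nr1d1 was next with 73.7 RPM per kb in heart and 60.4 in TA, and Nr1d2 came after them with 30.4 and 23.1. In RNA the order at the top was different: Nr1d2 had 115 RPM per kb in heart and 118 in TA, ahead of Dbp with 77.7 and 53.2 and Nr1d1 with 63.0 and 38.0. At the bottom of the footprint order stood Arntl in heart, with 2.61 RPM per kb (2.19 to 3.08), and Per3 in TA, with 2.31 (2.01 to 2.63). The footprint levels of Per1 and Hlf, of Nfil3 and Clock, and of Per3 and Per2 were neighbours in heart whose intervals overlapped. In TA the overlapping neighbours were Hlf and Arntl, Clock and Per2, and Per2 and Per3. Among all listed genes Dbp stood at percentile 91.5 in heart and 92.1 in TA by footprints per kb, and Arntl at percentile 18.7 in heart and 42.4 in TA.

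**Figure D1:**
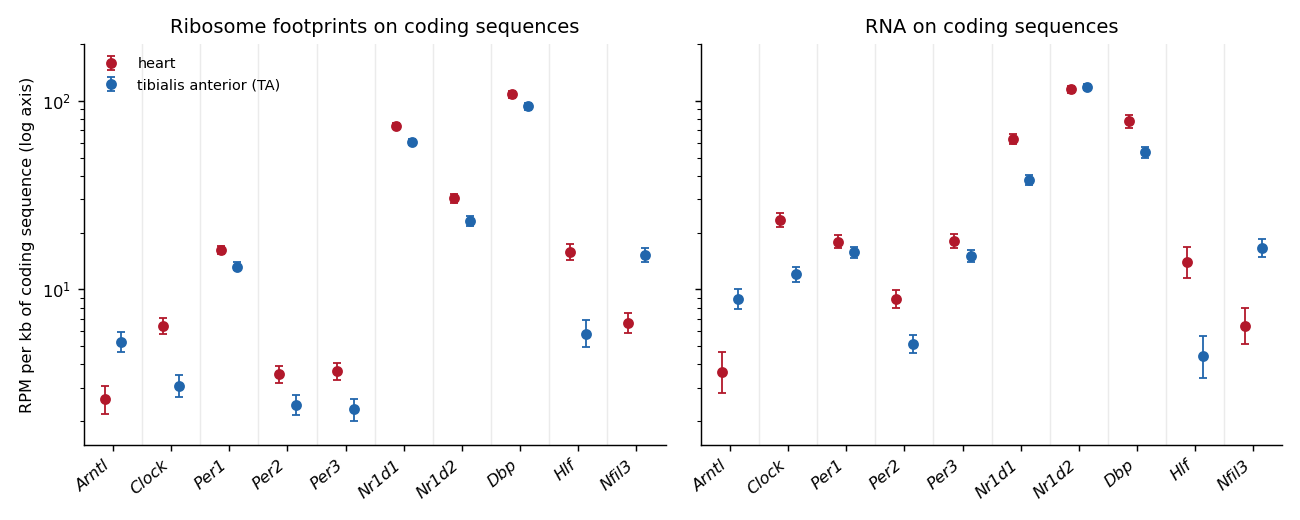
Coding-sequence level of the 10 clock genes in RPM per kb on a log axis, ribosome footprints on the left and RNA on the right. Red points are heart and blue points are TA, 1 library each, and bars are 95% counting intervals. Dbp tops the footprints at 108 RPM per kb in heart and 93.4 in TA, Nr1d2 tops the RNA, and Arntl and Nfil3 sit lower in heart than in TA in both panels.

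The messages differed widely in how many footprints they carried per RNA. Clock, Per3 and Nr1d2 were at least 2-fold below the median gene in both tissues, as were 17.8% of 10680 genes in heart and 18.7% of 10029 genes in TA. No member was at least 2-fold above in heart, where 16.0% of genes were, and Dbp alone was in TA, where 15.4% of genes were. The share of members below, 3 of 10 in each tissue, was above these backgrounds by 1 or 2 genes only. The value used is the log2 ratio of RPF to RNA on the coding sequence, called efficiency here, minus that of the median gene, whose ratio was 0.737 in heart and 0.835 in TA.

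Per3, a period protein, had the lowest efficiency of the members. It had 12.29 RPM of RPF and 60.36 RPM of RNA in heart, against 7.69 RPM of RPF and 49.99 RPM of RNA in TA. Its efficiency was log2 -1.85 in heart (-2.05 to -1.66) and -2.42 in TA (-2.66 to -2.22), at percentiles 5.3 and 2.5 of all genes. Per1, the other period gene with a similar RNA level per kb, was near the median gene, at log2 0.28 in heart (0.15 to 0.42) and 0.01 in TA (-0.11 to 0.13). Per1 had 62.38 RPM of RPF and 69.46 RPM of RNA in heart, against 51.17 RPM of RPF and 60.80 RPM of RNA in TA. The ratio of Per1 to Per3 per kb was 4.38 in heart (3.90 to 4.92) and 5.74 in TA (4.97 to 6.64) for footprints, but 0.992 in heart (0.885 to 1.11) and 1.05 in TA (0.954 to 1.15) for RNA. The 2 genes thus had RNA levels that could not be told apart by counting and footprint levels that differed by more than 4-fold. Per2 lay between them, at log2 -0.88 in heart and -0.80 in TA. It had 13.32 RPM of RPF and 33.50 RPM of RNA in heart, and 9.23 RPM of RPF and 19.38 RPM of RNA in TA.

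The REV-ERB genes showed the same kind of split. Nr1d1 had 135.75 RPM of RPF and 116.02 RPM of RNA in heart, against 111.33 RPM of RPF and 70.05 RPM of RNA in TA. Nr1d2 had 52.36 RPM of RPF and 198.43 RPM of RNA in heart, against 39.80 RPM of RPF and 202.89 RPM of RNA in TA. Nr1d2 was the more abundant of the 2 as RNA and the less abundant as footprints, in both tissues. The ratio of Nr1d1 to Nr1d2 per kb was 2.43 in heart (2.29 to 2.58) and 2.62 in TA (2.45 to 2.81) for footprints, and 0.548 in heart (0.508 to 0.590) and 0.323 in TA (0.302 to 0.346) for RNA. In efficiency Nr1d1 stood at log2 0.67 in heart and 0.93 in TA, and Nr1d2 at -1.48 in heart (-1.58 to -1.38) and -2.09 in TA (-2.19 to -1.99). Exons of Nr1d1 share 197 nt of its coding sequence (10.7%) with Thra, a thyroid hormone receptor gene on the opposite strand, in the GENCODE M21 annotation. The sources used here do not say whether reads were counted by strand, so reads of the 2 genes in that stretch cannot be told apart.

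Of the activators, Clock had few footprints for its RNA and Arntl a number nearer the typical gene. Clock had 16.40 RPM of RPF and 59.94 RPM of RNA in heart, against 7.87 RPM of RPF and 30.68 RPM of RNA in TA. Its efficiency was log2 -1.42 in heart (-1.61 to -1.25) and -1.69 in TA (-1.94 to -1.47). Arntl had 4.89 RPM of RPF and 6.85 RPM of RNA in heart, against 9.90 RPM of RPF and 16.77 RPM of RNA in TA. Its efficiency was log2 -0.04 in heart, where the 64 RNA reads gave a wide interval of -0.48 to 0.40, and -0.49 in TA (-0.75 to -0.25).

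The output regulators all lay at or above the median gene. Dbp had 104.89 RPM of RPF and 75.56 RPM of RNA in heart, against 90.77 RPM of RPF and 51.73 RPM of RNA in TA, which gave an efficiency of log2 0.91 in heart (0.79 to 1.03) and 1.07 in TA (0.96 to 1.19). Both intervals held the 2-fold line, so its place above that line in TA and under it in heart is within counting error. Hlf had 13.92 RPM of RPF and 12.31 RPM of RNA in heart, against 5.14 RPM of RPF and 3.91 RPM of RNA in TA, with an efficiency of log2 0.62 in heart and 0.65 in TA. Nfil3 had 9.18 RPM of RPF and 8.88 RPM of RNA in heart, against 21.02 RPM of RPF and 22.92 RPM of RNA in TA, with an efficiency of log2 0.49 in heart and 0.14 in TA. Dbp shares 213 nt of its coding sequence (21.8%) with exons of Sphk2 on the opposite strand, a gene with no row in either table.

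**Figure D2:**
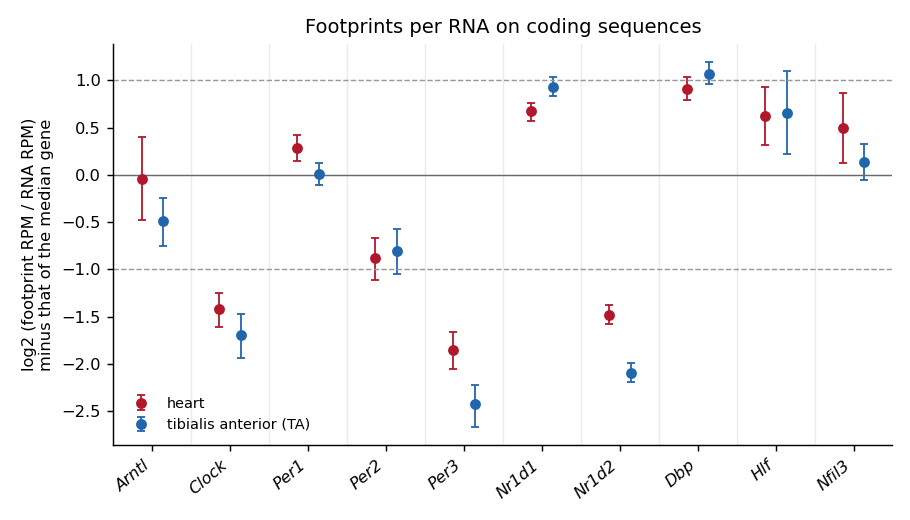
Footprints per RNA on the coding sequence of each clock gene, as log2 relative to the median gene of the tissue. Red is heart, blue is TA, bars are 95% counting intervals, the solid line is the median gene and dashed lines mark 2-fold. Clock, Per3 and Nr1d2 lie below the lower dashed line in both tissues. By value, heart and TA keep the same order of genes, though the intervals of some neighbours overlap.

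Efficiency itself differed little between the tissues. No member was 2-fold apart, while 4.07% of 9635 genes were 2-fold or more above TA in heart and 2.34% were 2-fold or more below. The widest gaps were those of Nr1d2, higher in heart by log2 0.61, and Per3, higher in heart by 0.58. Nr1d1 leaned the other way, at -0.26, so the REV-ERB pair was closer together in heart than in TA. The smallest gaps were those of Per2, at -0.08, and Hlf, at -0.03. Counting intervals are not given for these differences, so whether the smaller ones differ from 0 is left unstated.

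Between heart and TA the levels differed by at least 2-fold for a minority of the genes, and the activators went opposite ways. In bulk tissue, fewer cells of a type and less RNA per cell cannot be told apart. Arntl had fewer footprints and less RNA in heart: 0.499 of the TA level for footprints (0.400 to 0.607) and 0.412 for RNA (0.306 to 0.538). Clock had more footprints in heart than in TA, 2.07-fold (1.77 to 2.46), and 1.95-fold more RNA (1.73 to 2.21). Clock exceeded Arntl in footprints in heart and not in TA, and in RNA in both tissues. The footprint ratio of Clock to Arntl per kb was 2.45 in heart (2.03 to 2.99) and 0.582 in TA (0.486 to 0.696), and the RNA ratio was 6.40 in heart (4.94 to 8.43) and 1.34 in TA (1.15 to 1.56).

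The bZIP genes that share D-box sites also differed in balance. Hlf was higher in heart, 2.68-fold in footprints (2.23 to 3.30) and 3.09-fold in RNA (2.29 to 4.35), while the repressor Nfil3 was lower in heart, at 0.439 of TA in footprints and 0.390 in RNA. The ratio of Hlf to Nfil3 footprints per kb was 2.38 in heart (2.03 to 2.79) and 0.383 in TA (0.318 to 0.460). Dbp differed less, by 1.16-fold in footprints (1.10 to 1.22) and 1.46-fold in RNA (1.32 to 1.62). Dbp exceeded Nfil3 by 16.3-fold in heart and 6.14-fold in TA per kb of footprints. The summed footprints of Dbp, Hlf and Tef, the third PAR bZIP gene, were 26.4 times those of Nfil3 in heart and 11.8 times in TA. Tef itself went the way of Nfil3, at log2 -0.64 in footprints and -0.25 in RNA.

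The members past 2-fold were few in either direction, and are read beside the background. In RNA 35.0% of 9843 genes were at least 2-fold higher in heart, as was Hlf alone of the 10, and 3.88% were at least 2-fold lower, as were Arntl and Nfil3. In footprints 30.1% of genes were at least 2-fold higher, as were Clock and Hlf, and 5.06% were at least 2-fold lower, as were Arntl and Nfil3. The intervals of Clock, Arntl and Nfil3 in footprints and of Arntl in RNA hold the 2-fold line. The median gene itself stood 1.51-fold higher in heart in footprints and 1.62-fold in RNA, and the top 50 genes of a library held 36.8% of its coding RNA in heart and 58.1% in TA. Relative to the median gene, Hlf was 1.77-fold higher in footprints and 1.91-fold in RNA and Clock 1.37-fold and 1.20-fold, all under 2-fold. On that scale no member was at least 2-fold higher, while 11.9% of genes were in footprints and 13.5% in RNA. Arntl, at 0.330 in footprints and 0.254 in RNA, and Nfil3 stayed at least 2-fold lower, beside 12.0% of genes in footprints and 10.4% in RNA. With 10 genes, a count of 2 is close to such shares.

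The remaining genes varied less between the tissues. Per1 was 1.22-fold higher in heart in footprints (1.14 to 1.31), Per2 1.44-fold (1.23 to 1.69) and Per3 1.59-fold (1.35 to 1.90), and relative to the median gene these were 0.805, 0.950 and 1.05. Nr1d1 was 1.22-fold higher in footprints and 1.66-fold in RNA, and Nr1d2 was 1.31-fold higher in footprints with RNA within counting error of TA, at 0.978 (0.923 to 1.04). Relative to the median gene Nr1d1, Nr1d2 and Dbp turned to the lower side in footprints, at 0.805, 0.868 and 0.763. In RNA on that scale they were at 1.02, 0.604 and 0.901, and Per1, Per2 and Per3 at 0.705, 1.06 and 0.745. In RNA, markers of several other cell types were higher in heart as well. Endothelial markers, 8 of 8 listed in both tissues, summed to 1400 RPM of RNA in heart and 342 RPM in TA. Macrophage and leukocyte markers, 8 of 9 listed with Laptm5 missing, summed to 356 RPM of RNA in heart and 72 RPM in TA. Red cell markers, 2 of 5 listed, summed to 12500 RPM of RNA in heart and 472 RPM in TA, and smooth muscle and pericyte markers to 678 RPM (6 of 6 listed) and 258 RPM (5 of 6, Myh11 missing). Fibroblast markers, 6 of 6 listed, were nearly level in RNA, at 1480 RPM in heart and 1450 RPM in TA. In footprints they were lower in heart, at 1760 RPM against 2270 RPM. Smooth muscle and pericyte footprints summed to 700 RPM in heart and 549 RPM in TA. Nerve and Schwann cell markers summed to 19.6 RPM of RNA in heart (3 of 5 listed) and 26.5 RPM in TA (5 of 5). Adipocyte markers, 1 of 5 listed in heart and 4 in TA, are not compared. The part of these cell types in the clock-gene differences was not tested.

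**Figure D3:**
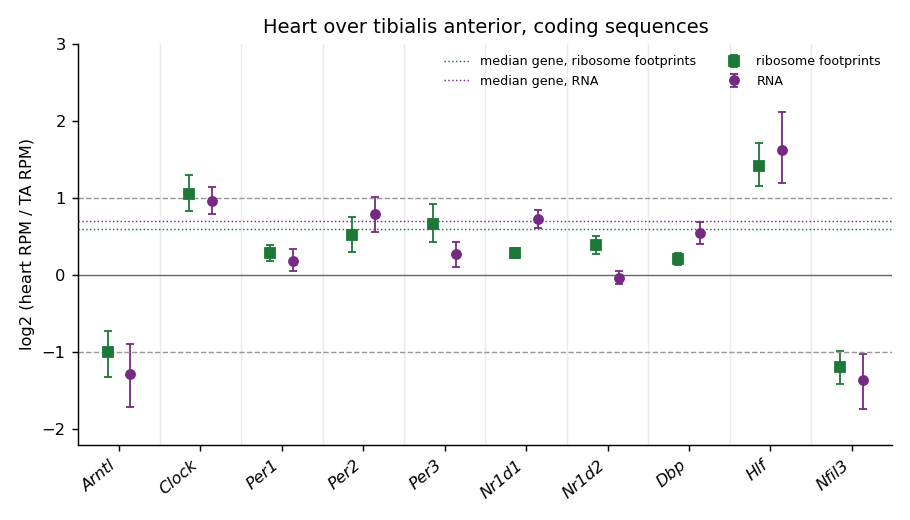
Heart over TA for the coding sequence of each clock gene, as log2 of the RPM ratio. Green squares are footprints, purple circles are RNA, bars are 95% counting intervals, dotted lines mark the median gene (0.60 for footprints and 0.70 for RNA) and dashed lines mark 2-fold. Arntl and Nfil3 lie below 0 and Hlf lies highest.

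Likeness was measured as distance over 4 values (efficiency in each tissue and heart over TA in footprints and in RNA), among the 10 members and the other listed clock genes only. The closest pair of members was Nr1d1 and Dbp, at a distance of 0.35 on the log2 scale. Among those clock genes the closest to Dbp outside the 10 was Csnk1d, a kinase that phosphorylates PER proteins, at 0.41. For Arntl the nearest of all was Nfil3, at 0.84, and the nearest other clock gene was Rora, an activator at RORE sites, at 1.09.

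Promoters were read because Arntl and Nfil3, the members lower in heart, are both known targets of REV-ERB and ROR receptors. RefSeq promoter windows of 300 bases (250 before to 50 after a start site, GRCm38.p6) were found for 9 of the 10 genes in 13 windows, with no entry for Per2. They were searched on both strands for the E-box CACGTG, the D-box TTATGTAA or TTACGTAA, the RORE core TAGGTCA or TGGGTCA, and the CRE TGACGTCA, the site of cAMP-responsive factors. The stretches around each match follow, 5′ to 3′ on the strand of the gene, with the motif in capitals. The sites are Arntl at chr7:113207531-113207557 on the plus strand, Nfil3 at chr13:52981035-52981061 on the minus strand, Per3 at chr4:151044853-151044880 and chr4:151044806-151044833 on the minus strand, Per1 at chr11:69098773-69098798 on the plus strand and Hlf at chr11:90390909-90390936 on the minus strand.
Arntl, RORE core: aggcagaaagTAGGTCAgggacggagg
Nfil3, RORE core in reverse complement: cgctcggaacTGACCTActaacacaca
Per3, upstream D-box: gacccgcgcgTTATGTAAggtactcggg
Per3, downstream D-box: ccgcccgcggTTATGTAAcccccgccgt
Per1, E-box: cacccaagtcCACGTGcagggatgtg
Hlf, CRE: gtgcgggcccTGACGTCActcttgtcag

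The RORE core lay 30 nt after the start site of 1 Arntl window and 12 nt before that of Nfil3, and 6.45% of all 32851 promoter windows held one. Per3 held its D-boxes 205 and 158 nt before the start site, a motif in 1.06% of all windows. The E-box of Per1, in 7.15% of windows, lay 166 nt before the start site, and the CRE of Hlf, in 1.79% of windows, lay 9 nt before it. Clock, Nr1d1, Nr1d2 and Dbp held none of these letters in their windows. The RORE was searched with the lower levels of Arntl and Nfil3 in heart already known, so their matches support nothing about those levels. A match is a description of the letters and not of a bound site.

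Ribosomes were also found on the 5'UTRs, the leaders before the main start codon, most of all on Dbp and Arntl. In heart the Dbp leader carried more footprints than its coding sequence, 119.95 RPM on the 5'UTR and 104.89 RPM on the coding sequence. In TA it carried 52.92 RPM on the 5'UTR and 90.77 RPM on the coding sequence. The 5'UTR share of 5'UTR plus coding footprints was 53.3% in heart, with a Wilson interval of 52.1 to 54.6%, and 36.8% in TA (35.4 to 38.3%), while its share of RNA reads was 25.4% in heart (22.8 to 28.3%) and 23.6% in TA (21.2 to 26.2%). The tissues thus differed in where footprints lay on Dbp and not detectably in where its RNA reads lay.

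Arntl also had more leader than coding footprints in heart, at a far lower level, but the excess was within counting error. It had 6.06 RPM of footprints on the 5'UTR and 4.89 RPM on the coding sequence in heart, against 6.65 RPM on the 5'UTR and 9.90 RPM on the coding sequence in TA. The 5'UTR share was 55.3% in heart (49.8 to 60.8%) and 40.2% in TA (35.8 to 44.6%) for footprints, and 22.0% in heart (14.4 to 32.1%) and 11.5% in TA (8.37 to 15.5%) for RNA. Unlike that of Dbp, the RNA of Arntl thus had a larger leader share in heart as well. The Arntl leader was at 0.913 of TA in footprints (log2 -0.13, -0.44 to 0.17) and 0.894 in RNA (log2 -0.16, -1.08 to 0.69), while the coding sequence was at 0.499 in footprints and 0.412 in RNA. For Dbp it was the leader that was higher in heart, 2.26-fold (log2 1.18, 1.09 to 1.27), with the coding sequence at 1.16-fold. The leader of the median gene stood log2 0.54 higher in heart in footprints, above the value of Arntl and below that of Dbp. More 5'UTR than coding footprints were found on 246 genes (2.42% of 10162) in heart and 157 genes (1.65% of 9537) in TA.

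**Figure D4:**
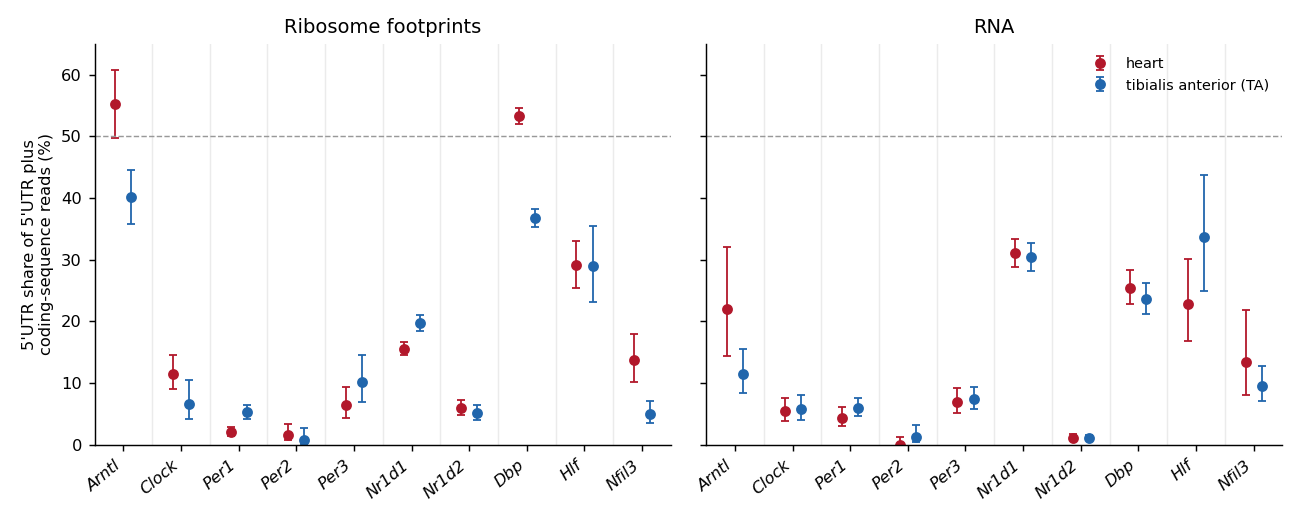
Share of reads on the 5'UTR among reads on the 5'UTR and coding sequence, in percent, for footprints on the left and RNA on the right. Red is heart, blue is TA, bars are 95% Wilson intervals and the dashed line marks equal numbers. The footprint shares of Dbp and Arntl reach 53.3% and 55.3% in heart and lie above their RNA shares in both tissues.

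Per nucleotide, 5'UTR footprints were at least as dense as coding footprints on Arntl (4.45-fold) and Dbp (2.95-fold) in heart, where 21.4% of genes met that mark. In TA the mark was met by Arntl (2.43-fold), Dbp (1.50-fold), Per1 (1.19-fold) and Per3 (1.07-fold), beside 19.1% of genes. The values of Per1 and Per3 are close to the mark and rest on 81 and 25 leader footprints. All 10 genes in heart and 9 in TA lay above the median gene in this ratio. The members' median was log2 -0.57 in heart and -0.35 in TA, against -1.48 and -1.65 over all genes. Leader RNA lay in the same direction, with a members' median of log2 -0.58 in heart and -0.78 in TA against -1.78 and -1.62 over all genes, and 8 and 9 of the 10 genes above the median gene. The RNA count in TA includes Per2, at log2 -1.36 on 4 leader reads.

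The leader footprints were then set against leader RNA. Footprints per RNA were at least as high on the leader as on the coding sequence for 8 of the 10 genes in heart, all but Per1 and Nr1d1, and for 6 in TA, beside 58.9% of all genes in heart and 51.1% in TA. The count includes Per3 and Nfil3 at log2 0.01 in heart, below the median gene's 0.40, and Per2, whose leader RNA had 0 reads in heart and 4 in TA, too few for a ratio to be read. Arntl stood at 4.23-fold in heart and 5.02-fold in TA, and Dbp at 3.34-fold and 1.88-fold. Nr1d2 stood at 5.46-fold in heart and 4.61-fold in TA with few RNA reads on its leader, which held 5.92% of footprints and 1.12% of RNA reads in heart, and 5.09% and 1.15% in TA. Nr1d1 had the reverse pattern, with 15.5% of footprints and 31.1% of RNA reads on the leader in heart and 19.7% and 30.4% in TA. The REV-ERB genes therefore differed on their leaders as well.

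Other leaders changed place between the tissues in either direction. The Nfil3 leader held 13.7% of footprints in heart (10.2 to 18.0%) and 5.06% in TA (3.60 to 7.05%), and the Clock leader 11.5% (9.02 to 14.5%) and 6.64% (4.13 to 10.5%). The Per1 leader went the other way, with 2.06% in heart (1.50 to 2.82%) and 5.25% in TA (4.24 to 6.47%). Hlf was level, with 29.1% in heart and 29.0% in TA. Summed over all genes, 5'UTR footprints were 2.06 times as many RPM in heart as in TA, while 5'UTR RNA was 1.09 times. The median gene's ratio of 5'UTR to coding footprints differed by log2 0.08. It differed by 0.97 for Dbp and 0.87 for Arntl, at percentiles 80.4 and 77.6 of all genes, and by 1.53 for Nfil3 and -1.34 for Per1, at percentiles 91.0 and 8.9. For RNA the same ratio differed by 0.14 for Dbp, 1.12 for Arntl, 0.60 for Nfil3 and -0.50 for Per1. The RNA value of Arntl rests on 18 leader reads in heart and 35 in TA. No interval is given for it, so the Arntl shifts in RNA and in footprints are not ordered.

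Reading frames that start with ATG were sought in the leaders, using GENCODE M21 transcripts (GRCm38) that carry each gene's RefSeq accession. All 10 genes had at least 1 upstream ATG, as had 46.2% of 10362 matched genes. Their leaders are long, with a median of 382.5 nt against 154 nt, and per 100 nt of leader they held 0.763 upstream ATGs against 0.560. Dbp and Arntl are shown because their leaders carry the most footprints relative to their coding sequences. Each stretch is 5′ to 3′ with the start triplet in capitals, and distances are from the A of the main start codon. Both genes lie on the plus strand of chromosome 7, Dbp with 4 exons at chr7:45705088-45710203 and Arntl with 20 exons at chr7:113207465-113314126. In the order shown, the stretches of Dbp are chr7:45705581-45705601 and chr7:45705589-45705609 in the 5'UTR and chr7:45705615-45705635 at the main start. Those of Arntl are chr7:113234634-113234654, chr7:113234664-113234684 and chr7:113274659-113274679 in the 5'UTR, then a stretch that crosses an exon junction, and chr7:113280654-113280674 at the main start.
Dbp, 34 nt upstream: cgactctccATGagctcatga
Dbp, 26 nt upstream: catgagctcATGaacctggga
Dbp, main start: tccacggcaATGgcgcggcct
Arntl, 321 nt upstream: ctgcagtgaATGcttttggaa
Arntl, 291 nt upstream: aggcttcaaATGtggaaccct
Arntl, 225 nt upstream: ttacaaaacATGaaagtcact
Arntl, 139 nt upstream: taacttcagATGtgggaattt
Arntl, main start: ttccttccaATGgcggaccag

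The Dbp triplets lie close to the main start. The outer one opens a frame of 3 codons that stops before the coding sequence, and the inner one opens a frame of 13 codons, out of frame with the protein, that runs past the main start. On Arntl all 4 frames end inside the leader, after 23, 13, 6 and 10 codons, and the outer pair share a stop. Frames that run past the main start were found on Dbp, Clock and Per1, 3 of the 10 genes, and on 15.1% of all matched genes. Upstream ATGs numbered 3, 4 and 3 on the low-efficiency genes Clock, Per3 and Nr1d2, while Arntl, Hlf and Nfil3 had 4, 4 and 3, Nr1d1, Dbp and Per1 had 2 each, and Per2 had 1. The longest upstream frame of the 10 was that of Nr1d1, 63 codons that begin 217 nt before its start. The tables give totals for a leader and not positions, so no footprint can be assigned to a frame. The sources used here do not say how reads that span the main start were divided between leader and coding sequence. For Dbp the deposited leader is 377 nt and the annotated one 536 nt, for Arntl both are 520 nt, and the deposited coding lengths of the 10 genes are all 3 nt shorter than the annotated ones.

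**Figure D5:**
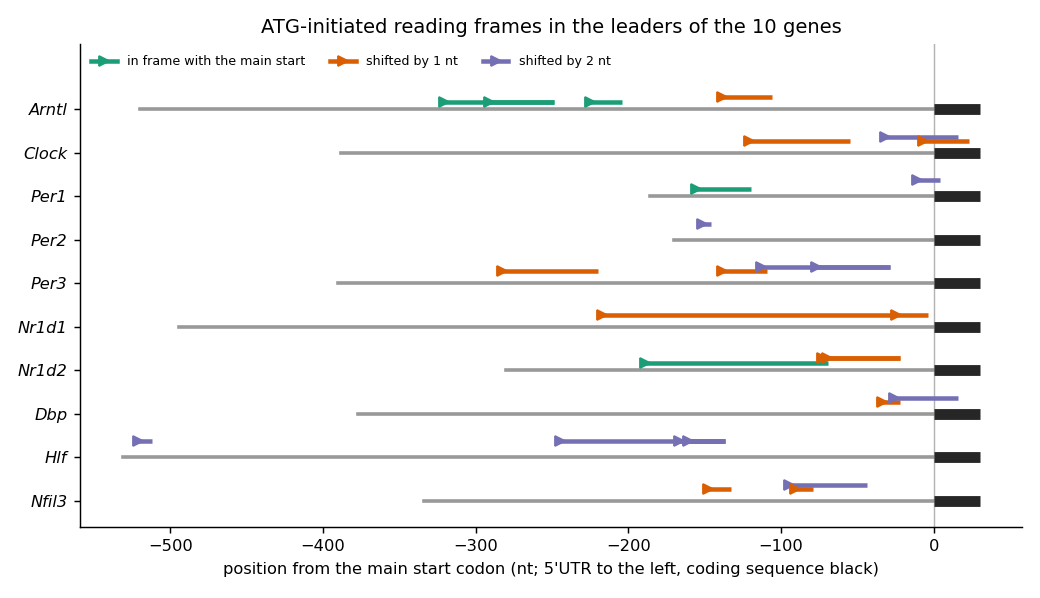
Upstream reading frames that start with ATG in the leaders of the 10 clock genes, with position in nt from the main start codon on the x axis. Grey lines are leaders, black bars the start of the coding sequence, arrowheads the upstream triplets, and coloured bars their frames to the first stop. Frames of Dbp, Clock and Per1 cross the main start, and the 4 frames of Arntl do not.

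On the 3'UTR, past the stop codon, footprints were sparse. The 3'UTR held 0.529% of all footprints in heart and 0.271% in TA, against 26.4% and 22.6% of RNA reads. Among the 10 genes its footprint density relative to the coding sequence ranged between log2 -7.24 (Nr1d2) and -2.71 (Dbp) in heart and between -6.97 (Hlf) and -4.06 (Per3) in TA. The 3'UTR of Nr1d2 carried 0.43 RPM of footprints and 258.26 RPM of RNA in heart, and 0.49 RPM of footprints and 285.00 RPM of RNA in TA. Dbp had 5.24 RPM of footprints on its 3'UTR in heart (148 reads) and 1.68 RPM in TA (48 reads), a difference in the same direction as on its leader. Its 3'UTR density in heart stood at percentile 85.1 of all genes. Dbp exons share 539 nt with exons of Sphk2 on the opposite strand, 213 nt of them coding and 0 in the 5'UTR. The rest lie past the coding sequence, where the deposited 3'UTR is 323 nt long. Whether reads were counted by strand is not given, so reads of the 2 genes there cannot be told apart. The 3'UTR of Arntl had 1 footprint in heart and 0 in TA.

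Of 42 other clock genes listed by role, 36 had a row. In RNA 5 of 34 measured in both tissues were at least 2-fold higher in heart and 2 lower, and in footprints again 5 were higher and 2 lower, beside the backgrounds given above. Among the lower ones was Rora, which encodes an activator at RORE sites, at log2 -1.77 in footprints and -1.05 in RNA. The highest was Wee1, a cell-cycle kinase gene with E-boxes in its promoter, at log2 1.86 in footprints and 2.60 in RNA. In efficiency 7 of 36 were at least 2-fold above and 8 below in heart, beside 16.0% and 17.8% of all genes. In TA 7 of 33 were above and 9 below, beside 15.4% and 18.7% of all genes. The PER partners Cry1 and Cry2 were split like the REV-ERB genes, Cry2 at log2 1.77 in heart and 1.45 in TA and Cry1 at -0.85 and -0.70. Per kb, Cry2 exceeded Cry1 by 17.4-fold in heart and 6.28-fold in TA in footprints, and by 2.77-fold and 1.41-fold in RNA. Taking the Per and Cry genes by sum, Per footprints per kb were 0.608 of Cry footprints in heart and 0.732 in TA, while Per RNA was 2.30 times Cry RNA in heart and 2.26 times in TA.

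Set against 2 other groups of regulators, the clock genes differed in where they lay. Immediate early factors had a median efficiency of log2 0.77 in heart (19 genes) and 1.28 in TA (18 genes), against 0.12 and -0.24 for the clock genes. Messages known for regulatory upstream frames, such as Ddit3 and Ppp1r15a, had a median efficiency of -1.31 in heart (16 genes) and -1.62 in TA (15 genes). Their median 5'UTR to coding footprint density was log2 0.06 in heart and -0.47 in TA, near the -0.57 and -0.35 of the clock genes. Dbp differed from Ddit3 in that its coding efficiency was high: log2 0.91 with a leader ratio of 1.56 in heart, against -3.61 with a leader ratio of 4.29 for Ddit3.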

How the data were processed

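The authors' deposited values are RPM for the coding sequence, 5'UTR and 3'UTR of 1 transcript model per gene, per the file headers, scaled to coding reads and listed for heart and TA in separate tables. Lengths of each part are in the same tables. The submitters' processing notes name Bowtie and the build mm9. The sources used here do not give trimming, the handling of multiply mapped reads or the rule for listing a gene. Low RPM values were whole multiples of 1 read within 0.005 RPM (100% of low values in each library), a read being worth 0.0354 RPM (RPF) and 0.107 RPM (RNA) for heart, and 0.0350 RPM (RPF) and 0.0621 RPM (RNA) for TA. RPF reads are less sure, since rounding is large beside their step. No count test could be fitted, since a group of 1 library has no residual degrees of freedom. Fold values are on the scale log2(RPM + 0.1), which understates changes of low genes, for genes whose RNA reached 1 RPM (the mean of the tissues for heart over TA), and 5'UTRs of at least 20 nt. Ratio intervals are conditional exact Poisson and share intervals Wilson, at 95%. The planned design did not specify the unit, and its pseudocount and minimum were kept for RPM. The members, lists and motifs were chosen with earlier results of these data known. All 10 members are named whatever their values, other genes only where the lists hold them. Some genes of the lists are not reported here. Promoters are from RefSeq and transcripts from GENCODE M21, neither on mm9. Python 3.11.15, numpy 2.4.6, pandas 2.3.3, scipy 1.17.1 and matplotlib 3.10.9 were used. Only the heart over TA ratios of coding sequences, their intervals and the worth of 1 read were tested on simulated data. Alternatives changed the pseudocount, minimum, centring, scaling, length trend and 5'UTR rule.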

Additional observations from a re-analysis of the deposited data

How the results depend on the processing

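No paired analysis was possible because each group has 1 library and the labels give no replicate numbers. For the same reason no library could be left out. Summing rows of a symbol and a 5'UTR minimum of 100 nt could not move any member, and are left out of the following. Over the other 437 recomputed member values, 331 moved by less than their counting interval, 104 moved by more and 2 reversed. The count of members at least 2-fold different in efficiency between tissues was 0 under each alternative run. The count of members at least 2-fold different in footprints, heart over TA, was 4 as reported and 2 under each of 3 alternatives. These were a pseudocount of 1 (Hlf and Nfil3), centring on the median gene (Arntl and Nfil3) and scaling without the 50 most abundant genes (Arntl and Nfil3). The cause was not tested, beyond the shift of the median gene that the last pair remove. The count of members whose 5'UTR footprints were at least as dense as their coding footprints in heart was 2 as reported, 5 with a pseudocount of 1, and 8 after subtracting the RNA density ratio. In TA that count was 4 as reported and 6 both with a pseudocount of 1 (adding Clock and Per2) and after subtracting the RNA density ratio (adding Clock, Per2 and Nr1d2). The mark was lost in TA by Per3 with a pseudocount of 0.01 (log2 -0.03) and by Per1 after subtracting the RNA density ratio (log2 -0.18). Removing the trend with coding length left Clock, Per3 and Nr1d2 at log2 -1.06, -1.33 and -1.34 in heart and -1.31, -1.91 and -1.92 in TA, but in TA took Dbp under 2-fold (0.93) and Nr1d1 past it (1.13). A minimum of 5 RPM also took Nr1d1 past it in TA (1.01). Without centring Dbp in TA was under 2-fold (0.81) and Per2 was more than 2-fold below (-1.32 in heart and -1.06 in TA). Scaling to reads on all 3 transcript parts, chosen after seeing the data, left the counts for RNA and footprints at 3 and 4. Leaving out the members with under 100 reads in a library, also chosen after seeing the data, left 7 genes and the count of 0. Few reads lay behind several leaders: 0 to 6 for Per2, 16 footprints for Clock in TA, and 18 and 13 RNA reads for Arntl and Nfil3 in heart. The coding RNA of Arntl in heart and of Hlf in TA rested on 64 and 63 reads.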

Other observations

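Output genes of the clock in striated muscle, a list drawn up with earlier results of these data known, had 23 of 25 genes listed in either table. In RNA 6 of 19 measured genes were at least 2-fold higher in heart and 2 lower, and the counts in footprints were the same. Over all genes 35.0% were higher and 3.88% lower in RNA, and 30.1% and 5.06% in footprints, so the share of higher genes is close to that of all genes. Lpl, the lipase that frees fatty acids from blood lipids, was highest at log2 4.12 in RNA and 4.00 in footprints. Tbc1d1, a regulator of glucose transporter traffic, was lowest at -2.29 in RNA and -2.79 in footprints. Their leaders held few footprints relative to coding sequences, with a median of log2 -2.29 in heart and -3.61 in TA, against -0.57 and -0.35 for the 10 clock genes. Pdk4, the kinase that blocks pyruvate oxidation, had the highest leader ratio of the list in heart, at -0.19, and -2.22 in TA.

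The leaders of Tef and Cry2 held 0 or 1 reads in each library, and the levels of their coding sequences lay among those of the 10 genes. Those leaders are 156 nt long for Tef and 46 nt for Cry2. Because leader RNA was as sparse as leader footprints, these counts cannot show whether the leaders lack ribosomes. These 2 genes were chosen for mention after their leader values were seen.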
